A study of Saccharomyces cerevisiae with 24 samples.

Results

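The genes described here are 10 amino acid synthesis genes of the budding yeast Saccharomyces cerevisiae, chosen by their systematic names out of 5674 nuclear protein-coding genes with a usable spot. They are ARG1 (YOL058W), ARG3 (YJL088W), ARG4 (YHR018C) and ARG5,6 (YER069W) of arginine synthesis, MET3 (YJR010W), MET6 (YER091C) and MET17 (YLR303W) of sulfur assimilation and methionine synthesis, HIS4 (YCL030C) of histidine synthesis, and LEU1 (YGL009C) and LEU4 (YNL104C) of leucine synthesis. All 10 were measured in every column. They are known as genes without an intron, a property that could not be read from the gene table used here, and their transcription is known to depend on the medium.

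Chromatin immunoprecipitation with microarrays (ChIP-chip) recorded where spliceosome proteins, the elongation factor Spt5 and RNA polymerase II sat on open reading frames. Each of 24 columns holds 1 log2 ratio per gene, probably that of the precipitated fraction over the extract it came from, a direction the files do not state. A column is 1 tagged factor in 1 culture condition, with its biological replicates already combined by the authors, so there is no spread between samples, no p-value and no interval behind any value. Precision is set by how few arrays were combined. Every value below is centred on the median over genes of its column, and a percentile is the rank of a gene among all genes of that column.

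The cells had been grown to an optical density of 0.6 in rich medium for 16 columns. These are RNA polymerase II, the profiles of Spt5-9myc, Prp40-9myc, Mud2-13myc, Lea1-13myc, Prp11-13myc, Prp5-9myc, Prp2-13myc, Brr2-13myc, Prp19-9myc and Sub2-3HA, Prp40-9myc in a strain labelled del_cbc, and Prp40-9myc and Mud2-13myc after a shortened fixation with and without RNase. The medium of the BBP-3HA column is not given. Synthetic medium without uracil (SC-URA) was used for 3 columns of Prp40-3myc, namely a control, a strain labelled spt5_194 and cells given 80 ug/ml 6-azauracil, a drug that hinders transcription elongation, for 30 minutes. Synthetic medium without histidine (SC-HIS) was used for 4 columns, Lea1-13myc and Brr2-13myc in SUB2 wild type and in the temperature-sensitive sub2-85 strain, all of them warmed for 5 minutes and held at 37 degrees for 30 minutes before fixation. All tagged factors carry the tag at the C-terminus and at their own locus. From 2 replicates for RNA polymerase II to 6 for Sub2 stand behind a column, by the label of each column.

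Synthetic complete dropout medium supplies most amino acids and leaves out the compound named, while rich medium supplies them through digested protein. The activator Gcn4 raises transcription of most amino acid synthesis genes when an amino acid runs short. Each pathway also has its own control, since arginine represses ARG genes, methionine represses the MET genes that Met4 activates, and Leu3 tunes LEU genes to the leucine precursor. Splicing factors gather on intron-bearing genes as RNA is made, and the genes described here lack the introns that they act on.

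The direction of the ratio could not be settled for 5 columns, since they take part in 3 pairs whose Pearson correlation over all spots was below -0.3. These were the Mud2 profile with 6-azauracil at -0.34, spt5_194 with RNase-treated Mud2 at -0.36, and RNase-treated Mud2 with Lea1 in SUB2 wild type at -0.32. Spearman's rho for the pairs was -0.40, 0.05 and 0.04 in the same order. By rank only the pair of the Mud2 profile with 6-azauracil was thus negative. All 5 columns were used as deposited, and values with the sign turned stand beside the comparisons that rest on them. The robust SD over genes ran from 0.09 in the RNase-treated Prp40 column to 0.69 in the Mud2 profile, so a given log2 value does not mean the same rank in each column. None of the 240 values of the 10 genes lay at the limit of the scale, and 7 reached 1 or more in size.

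RNA polymerase II was above the column median on all 10 genes, with a median of 0.76, and 4 of them stood at 1 or more, which is 2-fold. Over all genes 9.22% did so. The highest was ARG1, for argininosuccinate synthetase, at 1.93, followed by MET17, for the enzyme that joins sulfide to O-acetylhomoserine, at 1.79. ARG3, for ornithine carbamoyltransferase, had 1.17 and LEU1, for isopropylmalate isomerase, 1.12. HIS4, which codes for an enzyme of several steps of histidine synthesis, lay just under this level at 0.98. Below these came MET6, for methionine synthase, at 0.54, ARG4, for argininosuccinate lyase, at 0.51 and LEU4, for the first committed enzyme of leucine synthesis, at 0.42. ARG5,6, whose product is cut into a pair of mitochondrial enzymes of arginine synthesis, had 0.30. MET3, for ATP sulfurylase at the start of sulfate assimilation, was last at 0.08. With columns brought to a common distribution, 2 genes in place of 4 reached 1. That step keeps the rank of each gene in its column, and the share of all genes then at 1 or more was not calculated.

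Spt5, which travels with the elongating polymerase, ordered the same genes differently. LEU1 led at 1.37 and MET6 followed at 1.26, the 2 genes at or above 1, where the share over all genes was 7.45%. MET17 had 0.89, ARG4 0.78 and LEU4 0.71. Further down stood ARG1 at 0.28 and ARG5,6 at 0.15, and HIS4 at -0.04, ARG3 at -0.14 and MET3 at -0.26 were below the column median. No gene reached 1 once the columns had a common distribution.

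**Figure D1:**
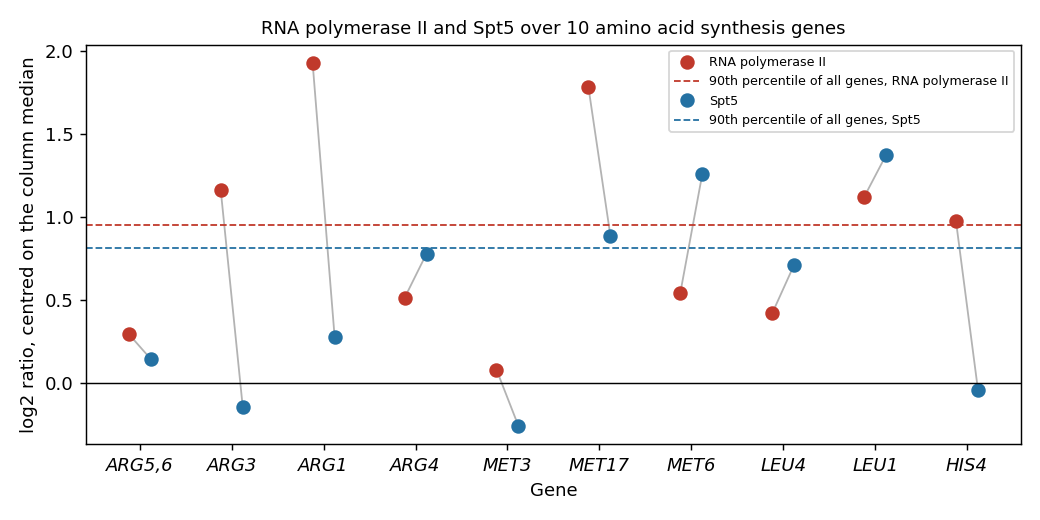
Centred log2 ratio (vertical axis) of RNA polymerase II (red) and Spt5 (blue) for each of the 10 genes, 1 point per combined column, with dashed lines at the 90th percentile of all genes. ARG1, ARG3 and HIS4 are high for the polymerase (1.93, 1.17 and 0.98) and near the column median for Spt5 (0.28, -0.14 and -0.04), while MET6 and LEU1 are the highest for Spt5.

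The gap between these columns was widest for ARG1, ARG3 and HIS4. Spt5 minus RNA polymerase II was -1.65 for ARG1, -1.31 for ARG3 and -1.02 for HIS4, and it was lower by 1 or more for these 3 of 10 genes against 2.94% of all genes. MET17 followed at -0.90. The opposite end was MET6 at 0.72, the 95.8th percentile of this difference over all genes, with no gene higher by 1 or more against 1.06% overall. ARG4, LEU1 and LEU4 lay between 0.25 and 0.29, and ARG5,6 and MET3 at -0.15 and -0.34. With a common distribution the difference was -1.03 for ARG1, -0.67 for ARG3 and -0.50 for HIS4, so that 1 gene kept a value of 1 or more in size. The share of all genes was not calculated there. The columns come from different cultures and antibodies, and the polymerase column pools 2 replicates.

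Across the 10 genes Spearman's rho between the polymerase and Spt5 was 0.28, while it was 0.66 over all genes. Among splicing factors, rho with Spt5 over the 10 genes was highest for Prp5 (0.85), Mud2 (0.73), Prp2 (0.72) and Prp40 (0.71). With the polymerase these factors had 0.07, -0.08, 0.18 and 0.08. Over all genes they had 0.41, 0.33, 0.28 and 0.52 with Spt5, and 0.45, 0.14, 0.16 and 0.47 with the polymerase. Over the 10 genes the other factors ran from -0.08 for Sub2 to 0.66 for Brr2 with Spt5. With the polymerase they ran from -0.25 for Prp11 to 0.47 for Brr2. Every Mud2 value changes sign if the sign of its column is turned. These are descriptions from the same arrays, in part over 10 genes only. LEU1, the highest gene for Spt5, was also the highest of the 10 for Prp2, Prp40 and, as deposited, Mud2. MET17, next after ARG1 for the polymerase, was the highest for Prp5 at 0.55, above MET6 at 0.43 and LEU1 at 0.34. For Prp40, ARG5,6 at 0.35 and MET17 at 0.26 stood above MET6 at 0.23. ARG1 had -0.03 for Prp5, -0.67 for Mud2, -0.25 for Prp2 and 0.15 for Prp40.

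Over the 10 splicing factor profiles none of the 10 genes reached 1. The share of all genes that did was 3.6% for Prp40, 13.7% for Mud2, 1.08% for BBP, 3.35% for Lea1, 1.14% for Prp11, 1.35% for Prp5, 3.46% for Prp2, 3.12% for Brr2, 2.02% for Prp19 and 4.12% for Sub2. At -1 or less there was 1 value, MET6 for Prp11. The share of all genes there was 0.0887% for Prp40, 3.6% for Mud2, 0.335% for BBP, 0.248% for Lea1, 0.426% for Prp11, 0.0532% for Prp5, 2.43% for Prp2, 0.617% for Brr2, 0.674% for Prp19 and 5.89% for Sub2. By definition 10% of all genes lie above the 90th percentile (9.97% for Lea1), and 5 of the 10 genes did so for the polymerase, 3 for Spt5 and 3 for Prp5. For Prp40, BBP, Lea1, Prp11 and Prp2 it was 1 gene each, and for Mud2, Brr2, Prp19 and Sub2 none.

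Within the arginine pathway, the 4 genes stayed close to the column median for most splicing factors. ARG1 had a median of -0.03 over the 10 factor profiles, from -0.67 for Mud2 to 0.38 for Sub2. With the Mud2 sign turned it runs from -0.25 for Prp2 to 0.67 for Mud2, so that the place of Mud2 among the factors is not settled. ARG3 had -0.02, from -0.49 for Prp11 to 0.38 for Prp19, and its Prp40 value of -0.43 lay at the 2.6th percentile of that column. The gene was in the top 10% for the polymerase and near the bottom of the profile of Prp40, a protein of the U1 snRNP. Other Prp40 columns placed it from the 2.8th percentile in spt5_194, as deposited, to the 49.2nd after short fixation without RNase. It lay at the 22.0th in del_cbc and at the 40.0th in the SC-URA control. ARG4 ran from -0.19 for Lea1 to 0.24 for Prp19 with a median of 0.07, and has -0.21 for Mud2 with the sign turned. ARG5,6 ran from -0.50 for Sub2 to 0.36 for Mud2 with a median of 0.01, and had 0.35 for Prp40 at the 87.1st percentile. With the Mud2 sign turned its highest factor is Prp40 and its median -0.07. The 4 genes therefore do not share 1 pattern, and as deposited none of them was above the 90th percentile of any of the 10 factor profiles.

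The sulfur genes differed from each other in the same way. MET17 had 0.55 for Prp5, an ATPase that helps the U2 snRNP join, at the 95.9th percentile, and 0.39 for the U5 helicase Brr2 and 0.26 for Prp40. MET6 had 0.43 for Prp5 at the 93.7th percentile, 0.60 for Mud2 and 0.38 for Prp2. In the Prp11 column, however, MET6 stood at -1.69, the only value of the 10 genes at -1 or less in any of the 24 columns. Its next lowest factor value was -0.15 for Sub2, or -0.60 for Mud2 with the sign turned. MET3 was the gene with least signal, with a median of -0.04 over the factors and 0.60 for Sub2 as its highest value. Its value of -0.93 for Lea1, at the 0.4th percentile, likewise had no counterpart, since the 9 other factors placed it between -0.20 and 0.60.

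LEU1 was the gene with the broadest signal. All 10 factor profiles had it above the column median, from 0.07 for BBP to 0.91 for Mud2, with 0.86 for Prp2, 0.50 for Sub2, 0.47 for Prp40, 0.41 for Prp11, 0.38 for Lea1, 0.34 for Prp5, 0.28 for Brr2 and 0.27 for Prp19. It exceeded the 90th percentile for Prp40, Prp11, Prp5 and Prp2, and for the polymerase and Spt5, which makes 6 of 12 profiles. With its sign turned, Mud2 has -0.91. The gene next to it upstream is PMA1, for the plasma membrane proton pump, which had 1.71 for the polymerase and 2.77 for Spt5. Immunoprecipitated fragments can reach into a neighbouring gene, and the part this plays in the LEU1 value was not tested.

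LEU4 was above the median for 9 of 10 factors, or 8 with the Mud2 sign turned, with 0.38 for the branch point binding protein BBP as the highest, at the 94.2nd percentile, and Sub2 at -0.37 as the exception. HIS4 had its highest factor value for the U2 protein Lea1, 0.52 at the 92.1st percentile, and otherwise lay between -0.23 for BBP and 0.16 for Prp11. The remaining neighbours of the 10 genes were read for the polymerase as well. MET17 lies between YLR302C at 0.97 and the aconitase gene ACO1 at 1.39, whereas both neighbours of ARG1, GPD2 and YOL057W, had 0.14 and -0.01, and those of ARG3, SIP4 and TRL1, -0.08 and -0.18. ARG5,6 lies next to the ribonucleotide reductase gene RNR1, with 1.02 for the polymerase and 1.47 for Spt5, and MET3 next to the glycolytic gene TDH2, with 0.74 and 1.70. MET17, LEU1 and ARG5,6 thus had a neighbour with a polymerase value near or above 1, which ARG1 and ARG3 did not.

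**Figure D2:**
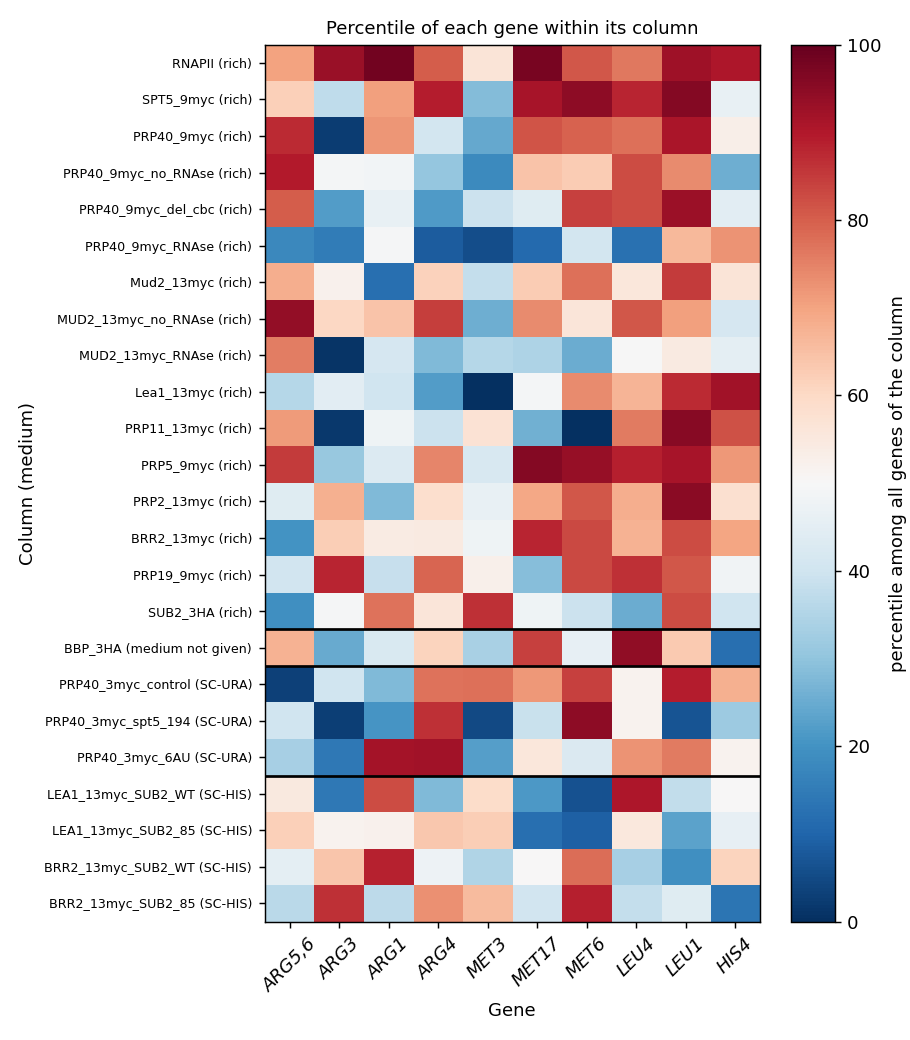
Percentile of each of the 10 genes (horizontal axis) among all genes of each of the 24 columns (vertical axis, with the medium in brackets), where red is high and blue is low; black lines separate rich, not given, SC-URA and SC-HIS. LEU1 is red in most rich columns and the polymerase row is red for nearly all genes, from the 56.3rd percentile for MET3 to the 98.1st for ARG1.

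The other genes of amino acid synthesis were read from 9 pathway lists with 83 measured genes. For the polymerase 20 of the 83 reached 1 and their median was 0.51, and for Spt5 12 of 83 reached 1 with a median of 0.28. The branched-chain list stood highest, with 5 of 9 genes at 1 or more for the polymerase and a median of 1.05, and 0.78 for Spt5, led by ILV5 at 1.71 and 2.74. The 6 other arginine genes had a polymerase median of 0.22 and the 18 other sulfur genes 0.34. For the 6 other histidine genes the medians were 0.55 for the polymerase and 0.08 for Spt5, and all 6 had a lower value for Spt5 than for the polymerase, with HIS3 at 1.54 and 0.32. The highest polymerase values of the 83 were LYS4 at 4.45, HOM2 at 3.53 and the glutamine synthetase gene GLN1 at 2.33. GLN1 also had 2.19 for Spt5 and 1.05 for Prp40, while LYS4 had -0.42 and -0.26 and HOM2 0.57 and -0.17 for these factors. The lowest were ARG7 at -0.76, MET8 at -0.68 and the sulfate permease gene SUL1 at -0.51. LYS4, HOM2 and ARG7 also had extreme values in other columns, given below. GCN4, the gene of the activator itself, had 1.77 for the polymerase, 2.13 for Spt5 and 1.16 for Prp40.

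**Figure D3:**
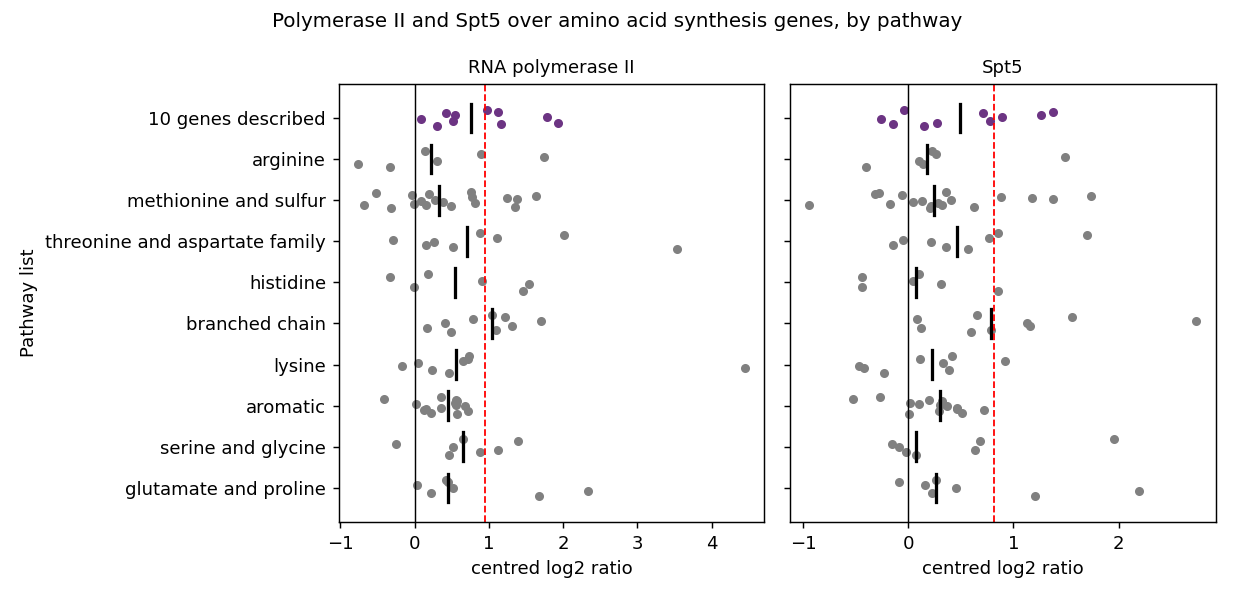
Centred log2 ratios of RNA polymerase II (left) and Spt5 (right) for the 10 genes (purple) and for the other genes of 9 pathways (grey), 1 point per gene, with black bars at the medians and a red dashed line at the 90th percentile of all genes. The 10 genes have medians of 0.76 and 0.49, and the branched-chain list 1.05 and 0.78.

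Whether the medium moved these genes was asked with the 3 factors that were profiled in both kinds of medium. No gene of the 10 differed by 1 or more in any of the 3 comparisons. Prp40 in SC-URA minus rich had a median of -0.08 over the 10 genes and -0.02 over all genes, of which 0.355% were higher and 3.14% lower by that amount. Lea1 in SC-HIS at 37 degrees minus rich had -0.04 beside -0.01, with 0.408% higher and 3.69% lower. Brr2 had -0.07 beside 0.00, with 3.63% in each direction. The Prp40 pair also differs in the number of myc repeats of the tag, and the Lea1 and Brr2 pairs differ in temperature and strain, so that medium cannot be told apart from these. The polymerase and Spt5 columns used here are both from rich medium. With the sign of the Lea1 dropout column turned the Lea1 median is 0.11.

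ARG5,6 had the largest Prp40 difference of the 10 genes. It stood at 0.35 in the rich Prp40 profile, at 0.55 after short fixation and at 0.21 in del_cbc, and in SC-URA at -0.43 in the control, -0.04 in spt5_194 and -0.13 with 6-azauracil. All SC-URA values lay below all rich values, and the control minus the profile was -0.79, at the 4.5th percentile of this difference over genes. LEU4 also kept apart, with, in the same order, 0.21, 0.31 and 0.24 in rich medium and 0.01, 0.01 and 0.17 in SC-URA. The LEU4 groups overlap in the values as deposited, before centring, so this separation depends on the centring. ARG4 went the other way, with -0.05, -0.10 and -0.16 in rich medium and 0.15, 0.20 and 0.42 in SC-URA.

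The other 7 genes overlapped between the media. LEU1 had 0.47, 0.17 and 0.56 in rich medium and 0.29, -0.22 and 0.20 in SC-URA. ARG1 had 0.15, -0.01 and -0.02 against -0.11, -0.12 and 0.41, where 6-azauracil alone was high. Counted over the columns, 1 of 10 genes had all SC-URA values above the rich ones, against 9.42% of all genes, and 2 of 10 had them all below, against 14.5%. Both shares are near the background. With the signs of spt5_194 and 6-azauracil turned, MET3 takes the place of ARG4, against 10.1% of all genes. ARG5,6 and LEU4 stay below, against 14.9%.

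The SC-HIS columns were lower than the rich column of the same factor for LEU1, HIS4 and MET17. LEU1 had 0.38 for Lea1 in rich medium and -0.06 and -0.09 in SC-HIS with SUB2 wild type and sub2-85, and for Brr2 0.28 against -0.20 and -0.06. HIS4 had 0.52 for Lea1 against 0.00 and -0.01, and for Brr2 0.14 against 0.07 and -0.42. MET17 had 0.00 against -0.16 and -0.15 for Lea1, and 0.39 against 0.00 and -0.09 for Brr2. These 3 of 10 genes compare with 15.1% of all genes, and ARG5,6 was the 1 gene higher in all 4 columns, against 12.6%. It had -0.09 for Lea1 against 0.02 and 0.03, and -0.20 for Brr2 against -0.03 and -0.12. Of the 83 other amino acid synthesis genes 22 were lower and 5 higher in all 4. With the sign of Lea1 in SUB2 wild type turned, the genes lower in all 4 are HIS4, LEU1 and LEU4, against 14.9% of all genes. Those higher are then ARG3 and ARG5,6, against 13.2%. The other amino acid synthesis genes number 22 lower and 5 higher as before.

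Checks of the medium and temperature gave mixed values. URA3, a uracil synthesis gene, had -0.04, -0.08 and 0.43 for Prp40 in SC-URA, and 0.15 in the rich profile, -0.21 after short fixation and 0.48 in del_cbc, so that the rich values span those in SC-URA. The 9 uracil synthesis genes had medians of 0.10, 0.07 and 0.25 in the SC-URA columns and 0.22, 0.13 and 0.19 in the rich ones, and with the signs turned -0.07 in spt5_194 and -0.25 with 6-azauracil. HIS3 in SC-HIS lay at the 0.934th and 0.159th percentile for Lea1, the first of them the 99.1st with the sign of that column turned, and had 0.77 and 0.03 for Brr2, against 0.42 and 0.76 in rich medium. Of 14 heat shock genes, 12 were above the median for Brr2 at 37 degrees in SUB2 wild type and 11 in rich medium, with list medians of 0.53 and 0.17. For Lea1 these were 4 and 9 genes, with -0.22 and 0.18, and 10 genes with 0.22 at 37 degrees if the sign is turned. Their part in the values of the 10 genes was not tested.

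**Figure D4:**
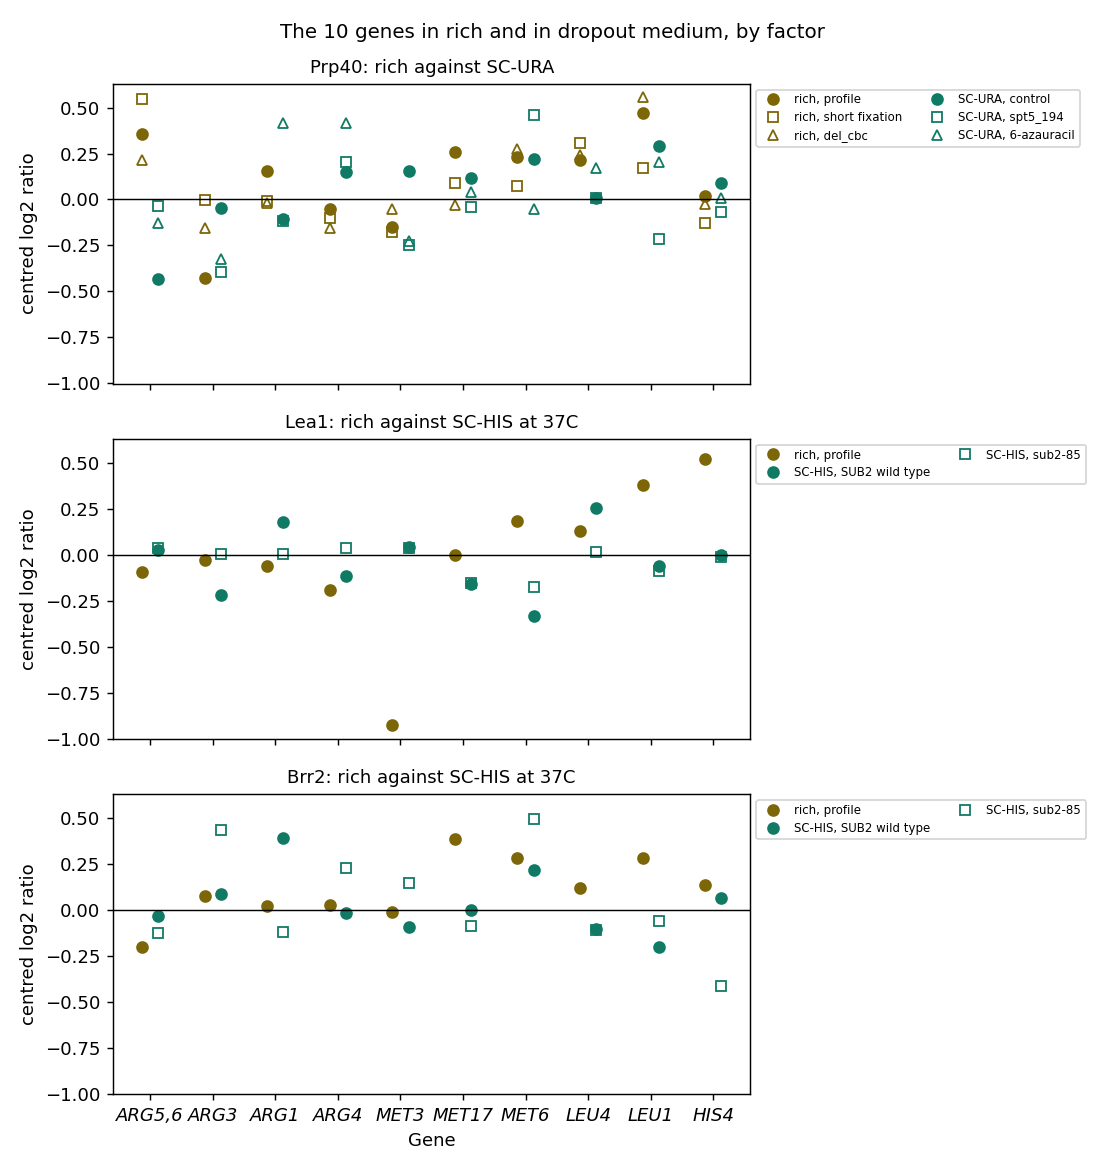
Centred log2 ratios of the 10 genes for Prp40 (top), Lea1 (middle) and Brr2 (bottom) in rich medium (brown) and dropout medium (green), 1 point per combined column, with shapes for strain or treatment. For Prp40 the brown and green points of ARG5,6, ARG4 and LEU4 do not overlap, and in the lower panels LEU1 is above 0.25 in rich medium and below 0 in SC-HIS.

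Among single differences, MET3 for Lea1 came nearest to 2-fold, at -0.93 in rich medium and 0.04 in SC-HIS with SUB2 wild type, a difference of 0.97 at the 99.5th percentile. It was 1.04 without centring and 1.42 with a common distribution, 0.88 with the sign of the dropout column turned, and it rests on the isolated rich value. ARG1 was higher in SC-HIS wild type for both factors, by 0.24 for Lea1 and 0.37 for Brr2, and HIS4 had differences of -0.52 and -0.07. With the Lea1 sign turned ARG1 has -0.12. In the pathway lists a few genes differed far more. ARG7 had a dropout minus rich difference of -1.51 for Prp40, -2.60 for Lea1 and -4.22 for Brr2, and HOM2 had -2.76 for Prp40 and -3.12 for Brr2. LYS4 had -1.86 for Lea1 and 1.44 for Brr2. With the sign of the Lea1 dropout column turned LYS4 has 1.83 there and ARG7 -3.81. These genes had extreme values in several columns, and those of ARG7 and HOM2 were not all of the same sign. In rich medium ARG7 stood at 3.21 for Lea1, 3.95 for Brr2 and -4.18 for Prp2, but at 0.14 for Spt5 and -0.76 for the polymerase. HOM2 had 4.32 for Brr2 in rich medium and -2.92 for Prp40 in the SC-URA control. LYS4 had 6.61 for Prp2, and for Brr2 in SC-HIS 2.10 in SUB2 wild type and 3.48 in sub2-85. The part of the medium in these differences was not tested.

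Within SC-URA, 6-azauracil and the spt5_194 strain were compared with the same Prp40 control. With 6-azauracil ARG1 stood at 0.41 against -0.11, a difference of 0.52 at the 95.3rd percentile, and ARG5,6 and ARG4 were higher by 0.30 and 0.27. MET3 had -0.38, and ARG3 and MET6 had -0.27 each. With the sign of the drug column turned ARG1 has -0.31, ARG4 -0.57 and ARG3 0.37. In spt5_194 LEU1 stood at -0.22 against 0.29, a difference of -0.51 at the 3.2nd percentile, and ARG5,6 at -0.04 against -0.43, higher by 0.40. The median difference of the 10 genes was -0.08 in each comparison, beside 0.00 and 0.01 over all genes, and none reached 1, where 0.864% and 0.652% were higher and 0.811% and 2.22% lower. With the sign of spt5_194 turned the LEU1 difference is -0.07 and the medians are -0.02 for spt5_194 and, with the drug column turned, -0.16 for 6-azauracil.

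GCN4 stood at 0.90 in the control, 0.58 with 6-azauracil and -2.73 in spt5_194, the lowest difference among 13 regulator genes in both comparisons as deposited. With the signs turned the GCN4 difference is 1.83 in spt5_194 and -1.49 with 6-azauracil, so the direction in spt5_194 is not settled. The spt5_194 column holds 13 values at the limit of the scale. MET6 had 0.46 in spt5_194 and 0.22 in the control, a difference of 0.24, or -0.68 with the sign turned.

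RNase treatment after short fixation was compared with the same fixation without RNase, for Prp40 and for Mud2 in rich medium. The RNase columns were narrow over all genes, with a robust SD of 0.09 for Prp40 beside 0.23 without RNase, and 0.10 beside 0.30 for Mud2. The 90th percentile lay at 0.12 beside 0.58 for Prp40 and at 0.15 beside 0.52 for Mud2. A high rank thus stood for a smaller log2 value with RNase. The narrower spread cannot be told apart here from an effect of RNase on single genes. The part of either in the differences of the 10 genes was not tested. The median difference of the 10 genes was -0.09 for Prp40 and -0.19 for Mud2, beside -0.01 and 0.00 over all genes, with 7 and 8 of 10 genes below zero. None was lower by 1 or more, against 5.43% and 4.09% of all genes, or higher, against 0.159% and 0.987%. The largest difference for both factors was that of ARG5,6, which had 0.55 for Prp40 and 0.75 for Mud2 without RNase and -0.09 and 0.07 with it. MET3 and HIS4 had differences of 0.01 and 0.18 for Prp40, and 0.15 and 0.05 for Mud2. With RNase all 10 genes lay between -0.17 and 0.05 for Prp40, and between -0.29 and 0.07 for Mud2. If the Mud2 RNase column is turned in sign, the median difference is -0.12 and that of ARG5,6 -0.82.

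In the strain labelled del_cbc the 10 genes kept their Prp40 values within 0.29 of the profile. The largest differences were -0.29 for MET17 and 0.27 for ARG3, and the median was -0.01, beside 0.01 over all genes. LEU1 had 0.56 against 0.47 and MET6 0.27 against 0.23. None reached 1, where 0.106% of all genes were higher and 0.639% lower.

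The sub2-85 strain against SUB2 wild type had a median difference of 0.00 for Lea1 and 0.07 for Brr2, beside -0.01 and -0.03 over all genes. None of the 10 genes reached 1, against 1.08% higher and 0.335% lower for Lea1, and 1.9% and 2.93% for Brr2. For Brr2 the widest differences were ARG1, at -0.12 against 0.39, and HIS4, at -0.42 against 0.07. ARG3 was higher in sub2-85 for both factors, by 0.23 and 0.35. LEU4 had 0.02 against 0.25 for Lea1 and -0.11 against -0.10 for Brr2. With the sign of the Lea1 wild-type column turned the Lea1 median is -0.04 and the ARG3 difference -0.22.

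**Figure D5:**
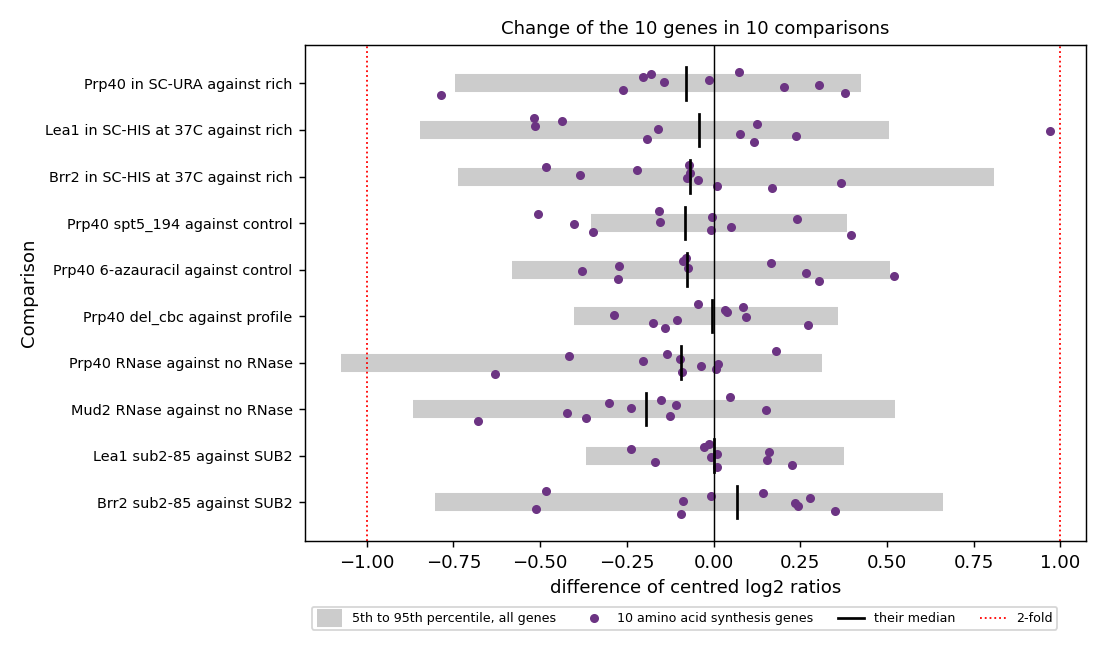
Difference of centred log2 ratios (horizontal axis) of the 10 genes, purple points, in 10 comparisons (vertical axis), with black bars at their medians, grey bars from the 5th to the 95th percentile of all genes and dotted lines at 2-fold. No point passes a dotted line, and MET3 for Lea1 in SC-HIS against rich is nearest, at 0.97.

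Likeness over the 24 columns was described by Spearman's rho, with no test, since columns share factors, strains and arrays. LEU4 was most like LEU9, at 0.83, which codes for the second isopropylmalate synthase and has a related sequence; whether spots of related sequence share signal was not tested. LEU1 was most like GSH1 at 0.83 and the phosphate transporter gene PHO84 at 0.82, and MET17 most like CHS7 at 0.81 and the transcription factor gene HAP4 at 0.79. ARG1 had CPR3 at 0.85 and SDH3 at 0.85, ARG5,6 had YBR138C at 0.82 and SUB1 at 0.77, and MET6 had ECM15 at 0.84 and LSM12 at 0.78. The nearest genes of ARG4 were MRPL35 at 0.75 and BUR6 at 0.75, of MET3 TIM54 at 0.71 and YOL057W at 0.69, of ARG3 GFD1 at 0.68 and YBR292C at 0.65, and of HIS4 PHO13 at 0.68 and GIT1 at 0.63. Among the 10 genes themselves the closest pair was LEU1 with MET17 at 0.59, followed by ARG5,6 with LEU4 at 0.57, and ARG1 had no higher value with any of the others than 0.16, with LEU4. LEU9 was the only amino acid synthesis gene among these 20. Over the 19 columns without those of open sign, CPR3, ECM15, PHO13 and PHO84 were the nearest genes to ARG1, MET6, HIS4 and LEU1. LEU9 held place 10 for LEU4 at 0.79, and the other 5 genes also had another gene nearest. For ARG3 this was ARG8, a gene of the arginine list, at 0.71. LEU1 with MET17 then had 0.49 and ARG5,6 with LEU4 0.69, so the order of likeness depends on these columns.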

How the data were processed

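Arrays of spotted open reading frames were hybridised with 2 labelled samples, immunoprecipitate and whole-cell extract, per the labels. The authors scanned them on a GenePix 4000B and combined replicates in Rosetta Resolver, per the series design text. The deposited values are log2 ratios of the channels. The sources used here give neither their direction nor a within-array normalisation. No value passes 6.64 in size, a limit of 100-fold. Dyes were reversed in at least 1 replicate, per the labels' protocols.

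Of 6284 spots, 5707 matched a locus of the RefSeq table for assembly R64, and 5674 nuclear protein-coding genes were used, 5634 to 5674 of them with a value in a column. RefSeq names ARG5,6 as ARG56. Columns were centred on their median over genes, differences were taken per gene, and 1 on the log2 scale (2-fold) was the threshold for a count. Calculations used Python 3.11.15, numpy 2.4.6, pandas 2.3.3 and scipy 1.17.1, and were checked on simulated columns. Alternatives were values as deposited, quantile normalised columns, values at the limit left out, means for medians, a 1.5-fold threshold and turned signs. No test between samples was made, because each group is 1 combined column.

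The 10 genes, the lists and the rules were chosen with earlier results of these data known. All 10 genes are named. Of the 83 other genes the 3 highest and 3 lowest in the polymerase column and in each medium comparison could be named, and for likeness the 2 genes with the highest rho, among genes with 20 or more values. URA3, HIS3 and GCN4 served as checks of the medium, and ILV5, ARG8, PMA1 and the other neighbours were named after their values were seen. No sequences are printed, because none were used here.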

Additional observations from a re-analysis of the deposited data

How the results depend on the processing

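Each result was set beside its main value under each alternative. For medians and counts over the 10 genes, 243 such comparisons moved by less than the robust SD over all genes, or 1.5 times for counts. In 16 they moved further. For single genes, likeness values included, these were 732 and 48. The robust SD measures spread between genes and stands in for a replicate spread, which could not be measured. It is wide beside most of the medians, so their staying within it says little. Counts of none that stayed at none are among those that did not move. No value of 1 or more in size for the 10 genes changed sign. None of these lay in a column of open sign, so turning signs could not reverse one. Smaller values did change sign, such as ARG1 with 6-azauracil against the control, from 0.52 to -0.31. The turned signs of other genes, lists and likeness were added after the data were seen. With quantile normalised columns, 2 genes in place of 4 reached 1 for the polymerase and 0 in place of 2 for Spt5. Spt5 minus polymerase was then lower by 1 or more for 1 gene in place of 3, Lea1 in SC-HIS against rich counted 1 gene higher (MET3) in place of 0, and Mud2 with RNase 1 gene lower (ARG3, at -1.01). Values as deposited also counted MET3, 1 gene, and left 1 gene, ARG5,6, with all SC-URA values lower in place of 2. A 1.5-fold threshold counted 1 gene lower in SC-URA, 1 higher for Lea1 in SC-HIS, 1 lower with RNase for Prp40 and 1 for Mud2, and 1 higher for Spt5 over the polymerase. Shares of all genes past a threshold were not calculated under these alternatives, so the counts past it have no background beside them. Genes higher in all SC-HIS columns, in place of 1, were 4 with Lea1 alone (37.8% of all genes), 2 with Brr2 alone (32%) and 2 with SUB2 wild-type columns alone (23.4%). Fewer columns were compared in these settings. With the Lea1 wild-type sign turned and all 4 columns kept there were 2 genes (13.2%). The causes of the other shifts were not tested. No paired analysis was possible because each group is 1 combined column with no replicate numbers, and no replicate could be left out. Precision is limited by the number of arrays, and signal over background was not analysed here.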
